A study of Mus musculus with 12 samples.

Results

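The 38 genes described here mark macrophages and other myeloid cells, and were measured in bulk RNA-seq of mouse heart ventricle. They were chosen by name: each row of the deposited count table whose symbol equals a listed gene was taken. All 38 were found among the 54949 features of the table, and all 38 passed the filter on low counts that left 15114 genes for testing. The study set a mouse model of HFpEF, a form of heart failure with impaired filling and a preserved ejection fraction, against controls. All animals were wild-type male C57BL/6N mice, 8 weeks old at the start and kept for 5 weeks. The model group received a high-fat diet and drank L-NAME, which blocks nitric oxide synthesis, at 0.5 g/L. The control group received normal diet and water. Atria were removed, so the tissue holds every ventricular cell type and the values cannot be assigned to single cells.

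The labels contradict each other on which group is which. The 6 libraries titled HFpEF, with the high-fat diet and L-NAME as their treatment, are named con-1 to con-6 in the files, and the 6 libraries titled CON, with normal diet and water, are named HF-1 to HF-6. The authors' own comparison table follows the library names. Below, the con-named and the HF-named group (n = 6 each) follow those names, and every fold change is HF-named over con-named. Which group received the treatment was not resolved, so no direction below can be read as an effect of the treatment. The design text gives 5 bulk samples per group where 6 are listed, and nothing says that each library is a separate animal, so the p-values rest on the spread among libraries, which may be technical.

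Macrophages are phagocytes that live in every tissue, and in the heart they clear dying cells and debris, exchange signals with fibroblasts and vessels, and take part in conduction. Their survival depends on the receptor Csf1r, and their gene program on the ETS-family transcription factor Spi1 (PU.1), which often acts with IRF factors such as Irf8. Resident-type cardiac macrophages, marked in mice by Lyve1, Timd4 and Folr2, largely maintain themselves, whereas Ccr2 marks cells that derive from circulating monocytes. C1q chains and Fc receptors serve the recognition of tagged cells and immune complexes.

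Since PU.1 and ETS-IRF pairs are known regulators of such genes, the promoters were searched for the short motif GAGGAA and for an ETS-IRF composite motif (GGAA, any 2 bases, GAAA), on both strands, in the 250 bases before the RefSeq start (GRCm38.p6, the same build as mm10). The motifs share the letters GGAA. A promoter entry was matched for 30 of the 38 genes, and C1qa, Spi1, Adgre1, Tyrobp, Csf1r, Cd14, Cd86 and Lyve1 had none. GAGGAA was present in 15 of the 30 (50%) and in 23.1% of all 27025 promoters, and the composite motif in 3 of the 30 (10%, Fcgr2b, Folr2 and Timd4) and in 2.38% of all. These are matches of letters, without a test, and say nothing about binding. Of the genes that fell in the test below, those whose exon-free promoter stretch holds a match are shown 5′ to 3′ on the gene's strand, with the match in capitals. TTCCTC is GAGGAA read on the opposite strand.
Pf4, chr5:90772185-90772434, plus strand: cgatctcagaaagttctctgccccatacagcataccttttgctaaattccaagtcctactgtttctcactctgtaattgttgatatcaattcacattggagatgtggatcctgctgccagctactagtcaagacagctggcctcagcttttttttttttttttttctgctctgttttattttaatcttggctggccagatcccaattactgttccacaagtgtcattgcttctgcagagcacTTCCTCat
F13a1, chr13:37050245-37050494, minus strand: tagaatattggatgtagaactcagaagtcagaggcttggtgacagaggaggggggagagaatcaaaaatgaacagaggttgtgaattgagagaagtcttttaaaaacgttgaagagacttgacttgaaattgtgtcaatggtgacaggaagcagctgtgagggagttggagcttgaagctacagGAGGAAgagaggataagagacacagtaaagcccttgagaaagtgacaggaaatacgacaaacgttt
Mrc1, chr2:14229164-14229391, plus strand: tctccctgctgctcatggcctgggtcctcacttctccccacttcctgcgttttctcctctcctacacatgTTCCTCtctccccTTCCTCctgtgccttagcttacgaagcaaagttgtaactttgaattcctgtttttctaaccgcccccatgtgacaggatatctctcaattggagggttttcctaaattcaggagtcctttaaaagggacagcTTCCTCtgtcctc
Fcgr3, chr1:171059404-171059626, minus strand: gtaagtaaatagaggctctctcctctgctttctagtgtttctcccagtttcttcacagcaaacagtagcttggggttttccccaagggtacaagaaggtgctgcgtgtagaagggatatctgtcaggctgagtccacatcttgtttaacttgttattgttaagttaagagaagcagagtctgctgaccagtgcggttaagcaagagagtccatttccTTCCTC
Folr2, chr7:101857195-101857440, minus strand: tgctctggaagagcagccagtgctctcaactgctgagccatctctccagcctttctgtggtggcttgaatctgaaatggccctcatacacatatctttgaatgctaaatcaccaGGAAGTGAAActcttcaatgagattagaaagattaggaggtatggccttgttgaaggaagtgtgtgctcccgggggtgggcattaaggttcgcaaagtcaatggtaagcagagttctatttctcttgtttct
The match ended close to the start in Fcgr3 and Pf4, beginning 6 and 8 bases before it. In F13a1 it began 66 bases before the start and in Folr2, the only composite match shown, 136 bases before it. Mrc1 held 3 matches, at 180, 167 and 35 bases.

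The libraries held 14443186 to 22048689 counts in genes. The share of counts from mitochondrially encoded transcripts was 22.4% ± 1.1 (SD, n = 6) in con-named and 25.2% ± 1.19 (SD, n = 6) in HF-named libraries (two-sided exact permutation test over libraries, p = 0.00433). Removing those transcripts before scaling left the same 9 members called in the test below. Levels are given as CPM, counts scaled by each library's total after TMM adjustment, which compares a gene between libraries but not with other genes.

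In HF-named libraries, 9 of the 38 genes fell and none rose, at an adjusted p under 0.05 (edgeR's quasi-likelihood test, Benjamini-Hochberg adjustment over all 15114 genes). The 9 were Pf4, F13a1, Lyz2, Folr2, Csf1r, Fcgr2b, Gas6, Mrc1 and Fcgr3. That is 23.7% of the members, where 5.05% of all tested genes fell and 8.28% rose. The members were chosen with earlier results of these data known, so such shares are a description and no test. The falls were small, from -0.17 (Gas6) to -0.63 (Folr2) on the log2 scale. Over all 38 members the log2 fold change was negative in 34 (89.5%), beside 52.7% of all tested genes, and its median was -0.24, beside -0.01 for all tested genes. At an unadjusted p under 0.05, 15 members were lower and none higher, where 13.4% of all tested genes were lower. Pf4 alone had all 6 HF-named libraries below all 6 con-named ones, a pattern that 1.95% of tested genes showed in that direction, and no member had the opposite pattern, which 3.41% of tested genes showed. Under other settings the number of members that fell was 9 with RLE size factors (background 5.0%), 9 with limma-voom (5.25%), 9 with a filter of 1 CPM in 6 libraries (6.45%), 9 without mitochondrial transcripts (5.4%), 10 with DESeq2 (6.61%), 5 with no filter beyond 1 count (1.8%), 4 with a replicate block (2.53%) and 14 when only library totals were used for scaling (17.1%). The 1.8% is a share of 33411 genes, those with low counts included, and is not like the shares of the filtered genes. In bulk tissue, fewer cells of a type and less RNA per cell cannot be told apart. The plot of log2 fold changes by role shows all 38.

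**Figure D1:**
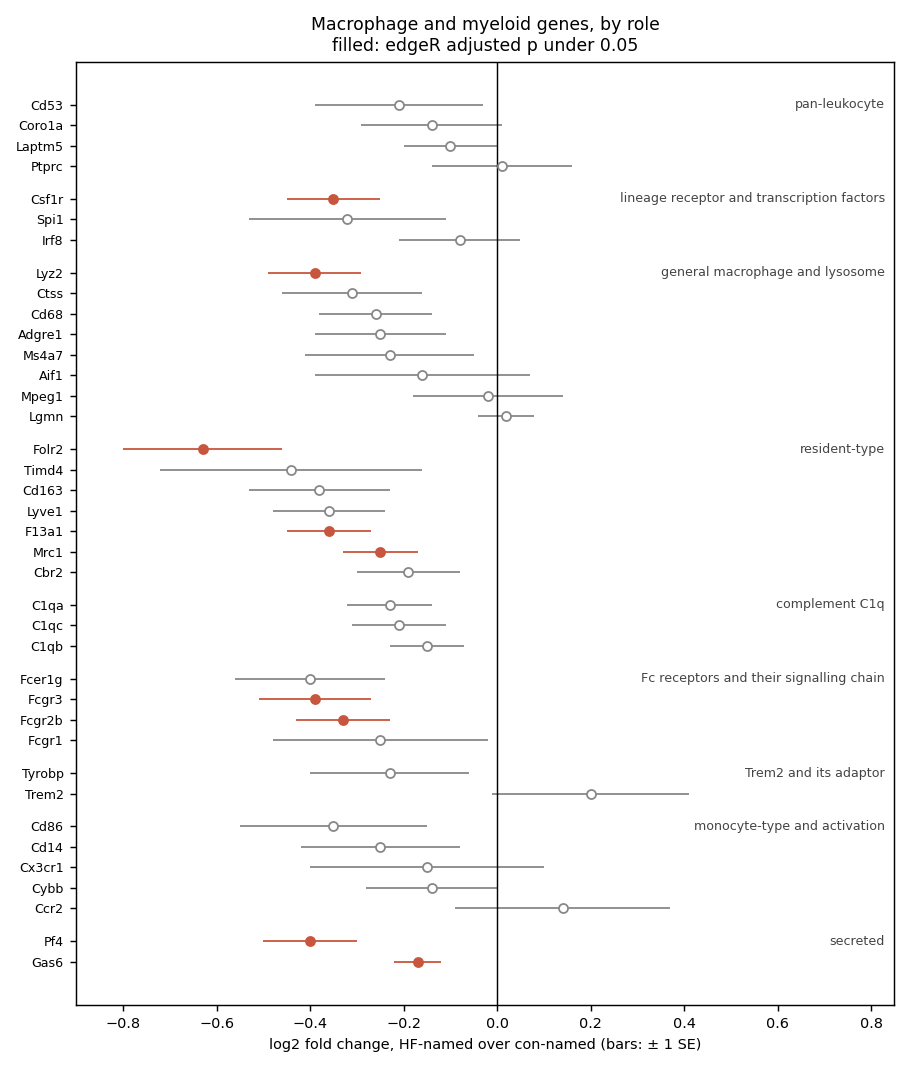
Log2 fold change (HF-named over con-named, edgeR) of each of the 38 genes, with its standard error, grouped by role; filled points are the 9 genes past the threshold. Of the 38 points 34 lie left of 0, the lowest being Folr2 at -0.63 and the highest Trem2 at 0.20.

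Csf1r, the receptor for the colony-stimulating factor that keeps macrophages alive (chromosome 18, 61100598 to 61132149), was the member of the lineage group that fell. Its CPM was 27.7, 33.6 and 40.4 (lowest, median, highest) in con-named libraries and 22.2, 25.1 and 32.0 in HF-named ones. The ranges overlapped, through HF-3 and HF-6, and the other 4 HF-named libraries were below every con-named one. The log2 fold change was -0.35 (SE 0.10, adjusted p = 0.0335), and the call held in 4 of the 12 fits that each left out 1 library, those without con-1, con-3, HF-3 or HF-6. On the opposite strand, Hmgxb3 shares 15.1% of Csf1r's exon bases. Its own log2 fold change was 0.11 (adjusted p = 0.232), and the strand setting of the counting is not given in the sources used here. The transcription factors did not pass the test: Spi1 gave -0.32 (SE 0.21, adjusted p = 0.339) and Irf8 -0.08 (SE 0.13, adjusted p = 0.741). Irf8 lay at 6.65, 8.17 and 11.7 CPM in con-named and 6.59, 8.25 and 9.45 CPM in HF-named libraries, so its medians nearly coincided.

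Among the 8 general macrophage and lysosomal genes only Lyz2 fell. Lyz2 encodes lysozyme, an enzyme that cuts bacterial cell walls (chromosome 10, 117277331 to 117282321). Its CPM was 93.5, 120 and 133 in con-named libraries and 77.7, 85.4 and 110 in HF-named ones. HF-named libraries 3 and 6 reached into the con-named range, of which con-1 was the lowest. The log2 fold change was -0.39 (SE 0.10, adjusted p = 0.0150), a level 23.9% lower, and the call held in all 12 fits that left out 1 library. The other abundant gene of the group, Lgmn, which encodes the lysosomal protease legumain, had a log2 fold change of 0.02 (SE 0.06, adjusted p = 0.834). Its CPM was 64.4, 68.1 and 70.3 in con-named and 61.7, 67.0 and 83.8 in HF-named libraries. The group's most abundant genes thus differed, Lyz2 having fallen while Lgmn showed a value near 0 with a small error. Among con-named libraries Lgmn also varied less (mean 67.9 CPM, SD 1.96) than Lyz2 (mean 117 CPM, SD 15.7). The part of other cell types in the Lgmn level was not tested. Cd68, a lysosomal membrane glycoprotein, gave -0.26 (adjusted p = 0.160), Ctss, the protease cathepsin S, -0.31 (adjusted p = 0.189), and Adgre1, the surface receptor used as a marker of mature macrophages, -0.25 (adjusted p = 0.272). Ms4a7 gave -0.23, Aif1, an actin-binding protein, -0.16, and Mpeg1, a pore-forming protein of phagosomes, -0.02.

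The 7 resident-type genes all had negative values, with a median of -0.36, and 3 of them fell. Folr2, a folate receptor (chromosome 7, 101839988 to 101857194), gave the lowest value of all members. Its CPM was 1.64, 1.91 and 2.0 in con-named libraries and 0.932, 1.11 and 1.73 in HF-named ones, a level 35.5% lower with a log2 fold change of -0.63 (SE 0.17, adjusted p = 0.0200). HF-1 overlapped the con-named libraries and the other 5 lay below all of them. Folr2 rests on 316 counts in all 12 libraries, and 63.1% of its exon bases are shared with Gm10602 on the opposite strand, which had 521 counts and a log2 fold change of -0.26 (adjusted p = 0.225). The strand setting of the counting is not given, so how reads from the shared bases were counted is not known.

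F13a1, the catalytic subunit of a coagulation transglutaminase (chromosome 13, 36867178 to 37050244), lay at 19.3, 22.2 and 25.7 CPM in con-named and 14.4, 17.5 and 20.4 CPM in HF-named libraries. It was lower by 21.9% (log2 fold change -0.36, SE 0.09, adjusted p = 0.0149), and HF-6 was the only HF-named library within the con-named range. Mrc1, the mannose receptor, which is also made by some endothelial cells (chromosome 2, 14229392 to 14332057), lay at 19.0, 22 and 23.9 CPM in con-named and 14.8, 18.1 and 21.0 CPM in HF-named libraries. Its log2 fold change was -0.25 (SE 0.08, adjusted p = 0.0469), and the ranges overlapped through HF-3 and HF-4. Folr2 and F13a1 stayed called whichever library was left out, and Mrc1 only without con-1, con-3 or HF-3. The remaining resident-type genes did not pass: Cd163, the scavenger receptor for haemoglobin bound to haptoglobin, gave -0.38 (SE 0.15, adjusted p = 0.111), Lyve1, a hyaluronan receptor also found on lymphatic endothelium, -0.36 (SE 0.12, adjusted p = 0.0610), and Timd4, a receptor for the phosphatidylserine of dying cells, -0.44 (SE 0.28, adjusted p = 0.311). Cbr2, a carbonyl reductase, gave -0.19 (SE 0.11, adjusted p = 0.249). Without con-2, the lowest con-named library for Lyve1, that gene passed too (adjusted p = 0.0149). Timd4 had 216 counts in all, 5 to 34 per library, and its HF-named libraries spread from 0.332 to 1.61 CPM.

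The C1q chains, which together form the recognition unit of the classical complement pathway, did not pass the test. C1qa lay at 24.6, 28.1 and 33.8 CPM in con-named and 22, 23.9 and 28.0 CPM in HF-named libraries (log2 fold change -0.23, SE 0.09, adjusted p = 0.102). C1qb lay at 25.9, 29.8 and 34.0 against 24.0, 26.6 and 29.7 CPM (log2 fold change -0.15, SE 0.08, adjusted p = 0.205). For C1qc the values were 21.3, 28.0 and 33.5 against 21.5, 23.7 and 28.9 CPM (log2 fold change -0.21, SE 0.10, adjusted p = 0.168). All 3 chains thus had lower HF-named medians and overlapping ranges. Without con-1, C1qc passed (adjusted p = 0.0417).

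Of the 4 Fc receptor genes, Fcgr2b and Fcgr3 fell. Fcgr2b, the inhibitory receptor for IgG (chromosome 1, 170958617 to 170976547), lay at 8.90, 10.5 and 12.6 CPM in con-named and 6.51, 8.73 and 9.83 CPM in HF-named libraries, with a log2 fold change of -0.33 (SE 0.10, adjusted p = 0.0409). The activating receptor Fcgr3 (chromosome 1, 171051174 to 171064935) lay at 9.16, 10.6 and 12.3 against 6.31, 7.62 and 11.2 CPM, with a log2 fold change of -0.39 (SE 0.12, adjusted p = 0.0472). Fcgr2b and Fcgr3 thus each passed the test, with overlapping ranges: HF-4 alone overlapped for Fcgr2b, and HF-3 and HF-4 for Fcgr3. Both calls depend on single libraries, Fcgr2b being kept only without con-2, con-6, HF-3 or HF-4 and Fcgr3 only without con-6 or HF-3. Fcer1g, the signalling chain that activating Fc receptors share, lay at 6.20, 7.29 and 9.58 against 4.05, 5.60 and 8.45 CPM and missed the threshold (log2 fold change -0.40, SE 0.16, adjusted p = 0.106), but passed without HF-3 (adjusted p = 0.0183). Fcgr1, the high-affinity receptor, gave -0.25 (SE 0.23, adjusted p = 0.533).

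Trem2, a lipid-sensing receptor, and Tyrobp, the adaptor through which it signals, gave values of opposite sign, neither of which passed. Trem2 lay at 1.53, 1.78 and 2.37 CPM in con-named and 1.18, 2.01 and 3.13 CPM in HF-named libraries (log2 fold change 0.20, SE 0.21, adjusted p = 0.591). Tyrobp lay at 4.34, 5.17 and 7.47 against 2.92, 4.67 and 6.32 CPM (log2 fold change -0.23, SE 0.17, adjusted p = 0.399).

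None of the 5 monocyte-type and activation genes passed. Ccr2, the chemokine receptor of recruited monocytes, lay at 3.24, 6.32 and 8.76 CPM in con-named and 4.25, 6.15 and 11.3 CPM in HF-named libraries, with a log2 fold change of 0.14 (SE 0.23, adjusted p = 0.732) that turned to -0.031 without HF-3. Cybb, the catalytic subunit of the phagocyte oxidase, lay at 6.87, 10.5 and 13.1 against 7.46, 8.83 and 11.6 CPM (log2 fold change -0.14, SE 0.14, adjusted p = 0.537). Both genes varied more between libraries of a group than between the groups. Cd86, a costimulatory ligand for T cells, gave -0.35 (adjusted p = 0.282), Cd14, a co-receptor for bacterial lipopolysaccharide, -0.25 (adjusted p = 0.349), and Cx3cr1, the fractalkine receptor, -0.15 (adjusted p = 0.730).

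The 4 genes that all leukocytes share did not pass either, and had a median of -0.12. Laptm5, a lysosomal protein of blood cells, lay at 15.8, 20.5 and 24.5 CPM in con-named and 17.1, 18.3 and 22.9 CPM in HF-named libraries (log2 fold change -0.10, SE 0.10, adjusted p = 0.575). Ptprc, the leukocyte common antigen, lay at 8.84, 12.5 and 18.5 against 11.3, 12.7 and 17.5 CPM (log2 fold change 0.01, SE 0.15, adjusted p = 0.978). Neither showed a difference larger than its spread. Cd53, a tetraspanin, gave -0.21 and Coro1a, an actin-binding protein of leukocytes, -0.14.

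Both secreted factors fell. Pf4, a chemokine stored in platelets and also made by resident macrophages (chromosome 5, 90772435 to 90773383), lay at 5.93, 6.82 and 7.26 CPM in con-named and 4.30, 5.07 and 5.66 CPM in HF-named libraries. The groups did not overlap, and the level was lower by 24.2% (log2 fold change -0.40, SE 0.10, adjusted p = 0.0147). Gas6, a ligand of the TAM receptors that links dying cells to phagocytes and is also made by fibroblasts and endothelium (chromosome 8, 13465374 to 13494490), lay at 129, 139 and 150 against 116, 123 and 137 CPM. Its log2 fold change was -0.17 (SE 0.05, adjusted p = 0.0439), a level 11.0% lower, and HF-3 alone overlapped the con-named range. Pf4 was called whichever library was left out, and Gas6 only without con-1, con-3 or HF-3. Of 7 platelet and megakaryocyte markers, 5 were too low to test and Gp1bb was at 0. The tested pair did not pass: Ppbp lay at 0.267, 1.16 and 1.59 CPM in con-named and 0.471, 0.864 and 1.59 CPM in HF-named libraries (adjusted p = 0.563), and Itga2b at 1.47, 1.79 and 2.74 against 1.36, 1.94 and 2.46 CPM (adjusted p = 0.998).

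**Figure D2:**
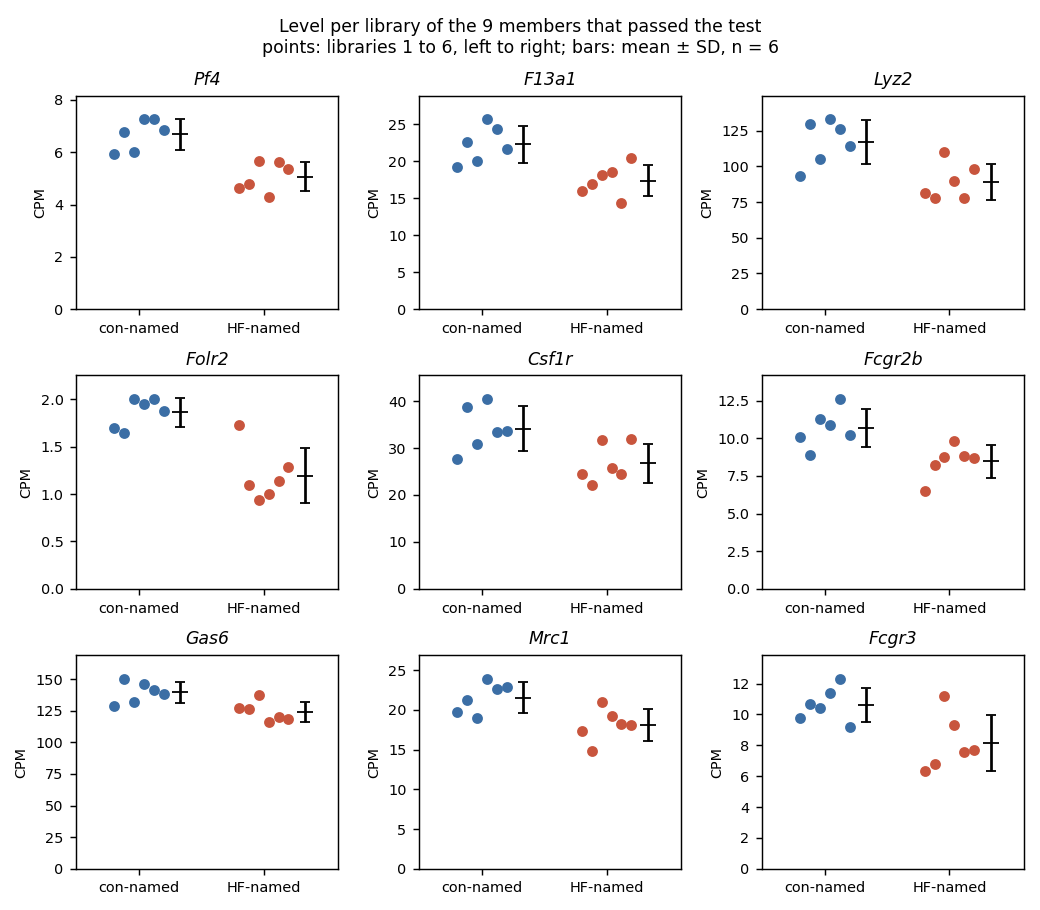
CPM of the 9 genes that passed the test in each of the 12 libraries (points, libraries 1 to 6 from left to right in each group), with the mean and SD of 6 libraries beside them; each vertical axis starts at 0. Pf4 alone shows no overlap, and the HF-3 point is the highest of its group for Lyz2, Mrc1, Fcgr3, Pf4 and Gas6.

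The members varied together between libraries of the same group. Within the con-named group, con-1 was the lowest library for 25 of the 38 genes, while con-5 was the highest for 18 and con-4 for 13. Within the HF-named group, HF-3 was the highest for 27 and HF-1 the lowest for 16. The typical gene lay 0.31 above its group mean in HF-3 and 0.27 below it in con-1 on the log2 scale (a median deviation of -0.27), shifts at least as large as the median difference between the groups. The summed CPM of the 38 genes ran from 621 to 790 in con-named and from 561 to 722 in HF-named libraries, so the groups overlapped. HF-3 was also the highest library of its group for the summed endothelial, T and NK cell, B cell, dendritic cell, mast cell and erythroid markers, and the lowest for the cardiomyocyte, mural, lymphatic endothelial and neutrophil markers. The part of those cell types in the members' values was not tested. Without HF-3, 10 members fell, and without con-4, con-5, HF-1, HF-2 or HF-5, 4 fell: Lyz2, Folr2, F13a1 and Pf4. Among all tested genes, the fits that each left out a library called 500 to 969 lower, beside 764 with every library kept. The member counts were not set against the share of all genes in the same fit. A change in the members alone thus cannot be read from them.

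**Figure D3:**
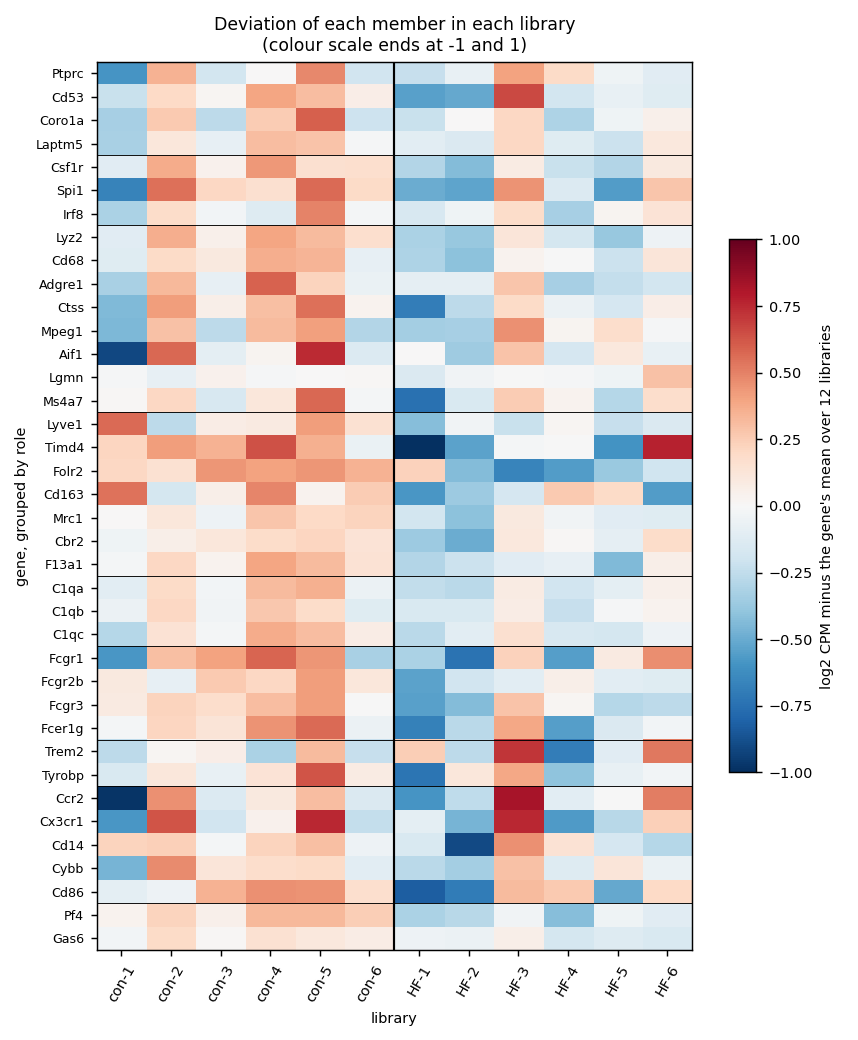
Log2 CPM of each gene minus its mean over the 12 libraries (colour, red above and blue below the mean) for the 38 genes (rows, grouped by role) in the 12 libraries (columns). The con-1 column is mostly blue among con-named libraries, and the HF-3 column mostly red among HF-named ones.

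Levels can be compared between genes only per length, for which the authors' FPKM (counts scaled by gene length and by the library total) was used. Lyz2 was highest, at 92.6 ± 14.7 FPKM (SD, n = 6) in con-named libraries, followed by Gas6 at 56.9 ± 5.02 and Lgmn at 30.4 ± 1.01. Then came C1qa at 28.9 ± 4.86, C1qb at 28.6 ± 4.02 and C1qc at 15.1 ± 2.70. The con-named ranges did not overlap between Lyz2 and Gas6, Gas6 and Lgmn, or C1qb and C1qc, and did for all other neighbours in the order. The lowest levels were those of Timd4 (0.570 ± 0.0964), Ms4a7 (0.521 ± 0.117) and Trem2 (0.389 ± 0.0801). The first 3 places were the same in HF-named libraries, at 65.2 ± 11.4 FPKM for Lyz2, 46.8 ± 4.63 for Gas6 and 28.5 ± 3.22 for Lgmn. FPKM is scaled to the library total, so differences between the groups on this scale also carry the change in the total's makeup.

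**Figure D4:**
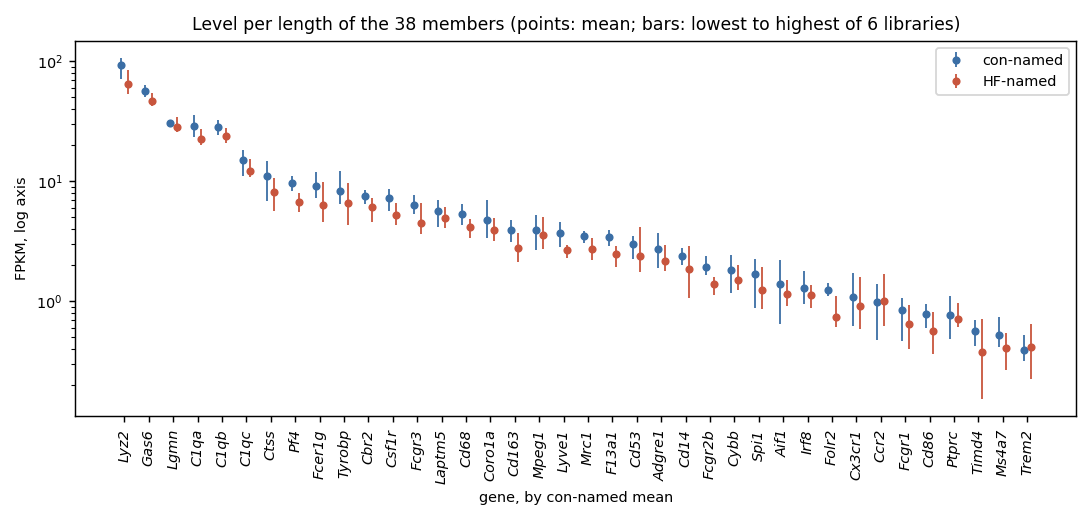
Authors' FPKM of the 38 genes (log axis) in con-named and HF-named libraries, ordered by the con-named mean; points are group means and bars run from the lowest to the highest of 6 libraries. Lyz2 stands at the top and Trem2 at the bottom.

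Other genes of the same pathways were taken from lists by pathway. Of 14 tested growth factors and monocyte chemokines none passed in either direction, the smallest p-values being those of Csf2ra, a receptor chain for another colony-stimulating factor (log2 fold change -0.23, SE 0.09, adjusted p = 0.111), and of the chemokine Cxcl1, named after its value was seen (log2 fold change -0.67, SE 0.27, adjusted p = 0.111). Without con-6, Cxcl1 passed (adjusted p = 0.0301), and with library totals as the scaling both passed. Of 18 TAM receptors, ligands and uptake receptors, 3 fell and 1 rose. Stab1, a scavenger receptor of macrophages and some endothelium, lay at 81.1, 87.9 and 109 CPM in con-named and 66.1, 75.0 and 82.4 CPM in HF-named libraries (log2 fold change -0.31, SE 0.08, adjusted p = 0.0174), and HF-named values were below all con-named ones in 5 of 6 libraries. Pros1, protein S, gave -0.31 (SE 0.08, adjusted p = 0.0186), and Axl, a receptor for Gas6, -0.19 (SE 0.05, adjusted p = 0.0200; named after its value was seen). The gene that rose was Cd36, a fatty acid and scavenger receptor that cardiomyocytes and endothelium also make (log2 fold change 0.35, SE 0.08, adjusted p = 0.00905). Gas6 and Axl were thus both called lower, Gas6 in only 3 of the 12 fits that left out 1 library. The other TAM receptors of the list, Mertk and Tyro3, did not pass in either direction.

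Of 17 genes of ITAM and Fc receptor signalling, Sirpa rose (log2 fold change 0.30, SE 0.06, adjusted p = 0.00657) and none fell. Sirpa, the receptor for the "do not eat" signal Cd47, is also made outside the myeloid lineage, and its call was lost with library totals as the scaling (adjusted p = 0.0873). Of 6 oxidase genes Cyba, the small membrane subunit made by many cell types, fell (log2 fold change -0.43, SE 0.09, adjusted p = 0.00697). Of 20 inflammatory and reparative products 10 were too low to test, Il1b, Il6, Tnf, Il10, Arg1 and Spp1 among them, and 3 of the other 10 fell. Apoe, the lipid carrier, lay at 191, 224 and 301 against 150, 169 and 184 CPM without overlap (log2 fold change -0.50, SE 0.09, adjusted p = 0.00325). Retnla, a secreted marker of alternatively activated macrophages, gave -1.27 (SE 0.36, adjusted p = 0.0278) and Nos2, the inducible nitric oxide synthase, -0.53 (SE 0.16, adjusted p = 0.0401). Leaving out 1 library ended the Retnla call for con-4, con-5, HF-1, HF-2 and HF-4, and the Nos2 call for con-2, con-3, con-4, con-5, HF-2, HF-4, HF-5 and HF-6. Apoe and Cyba are also expressed by cells outside the myeloid lineage.

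Markers of other cell types moved as well. Of 10 fibroblast markers 4 fell and all 10 values were negative (median -0.18), with summed levels of 1500 to 1913 CPM in con-named and 1222 to 1492 CPM in HF-named libraries, which do not overlap. Gsn gave -0.29 (SE 0.07, adjusted p = 0.0134) and Dcn, the matrix proteoglycan decorin, -0.35 (SE 0.07, adjusted p = 0.00519). Of 10 endothelial markers 3 fell and all 10 were negative (median -0.24, the same as for the members), with sums of 1337 to 1745 against 1053 to 1593 CPM. Fabp4 gave -0.19 (adjusted p = 0.199) and Cdh5 -0.34 (adjusted p = 0.0634), while Vwf, named after its value was seen, gave -1.04 (SE 0.15, adjusted p = 0.000792). Of 5 tested lymphatic markers 1 fell and Ccl21a was at 0; Prox1 gave 0.27 (adjusted p = 0.127) and Flt4 -0.25 (adjusted p = 0.0932). The part of these shifts in the fall of the macrophage genes was not tested. Of 10 cardiomyocyte markers 2 rose and 3 fell (median -0.02). None of the 8 mural, 6 T and NK cell, 7 B cell, 4 neutrophil, 3 dendritic and 1 mast cell markers that could be tested passed. In each of the erythroid and Schwann cell lists 1 rose.

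**Figure D5:**
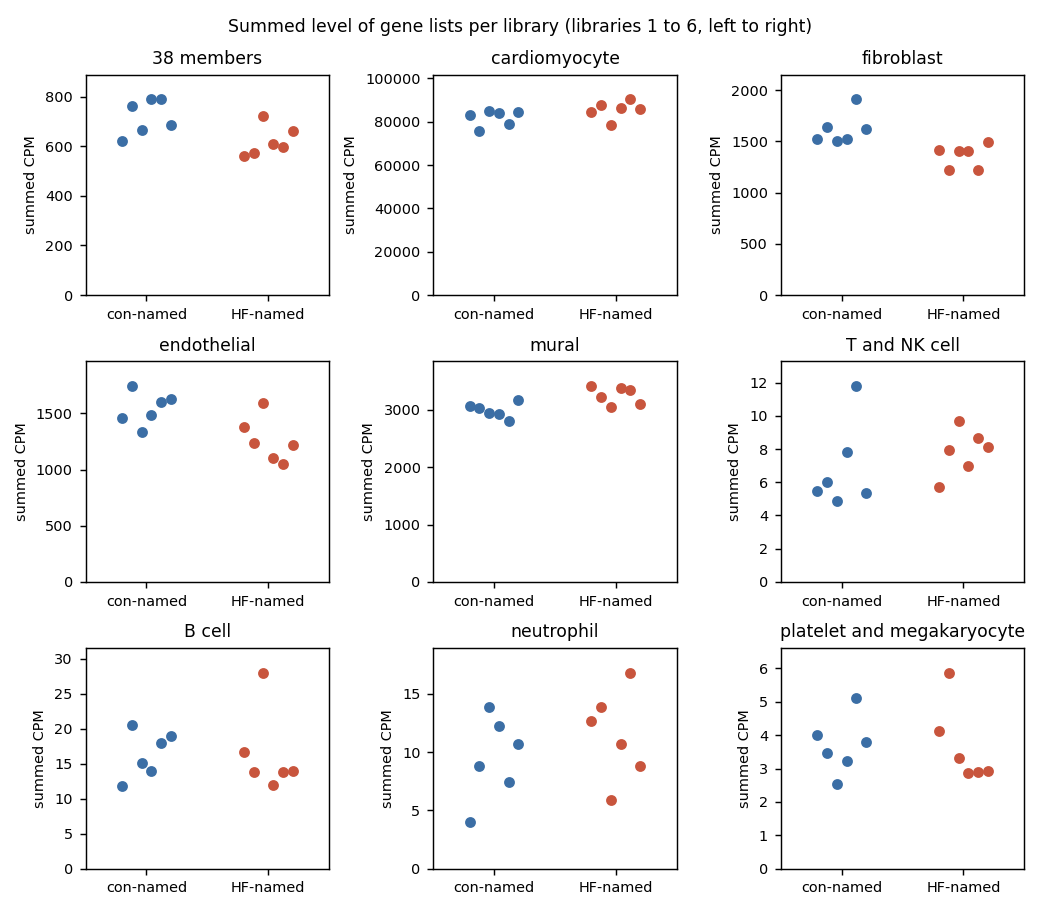
Summed CPM of the 38 genes and of 8 marker lists in each library (libraries 1 to 6 from left to right in each group); each axis starts at 0. The fibroblast sums of the groups do not overlap, and the sums of the 38 genes and of the endothelial markers do.

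In the authors' deposited table, 4 of the 38 genes were lower in HF at an adjusted p under 0.05 and none higher. Of its 33183 genes with an adjusted p, 1.72% were lower and 3.39% higher. Those genes outnumber the 15114 that passed the filter on low counts here, so this background is not like the one above. These were Lyz2 (adjusted p = 0.00620), F13a1 (0.00806), Pf4 (0.0169) and Csf1r (0.0372). Folr2, Fcgr2b, Gas6, Mrc1 and Fcgr3 had adjusted p-values between 0.0524 and 0.0712 in the authors' deposited table.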

How the data were processed

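Bulk RNA-seq of 12 ventricular libraries was analysed. The submitters' processing notes list the build mm10 with HTSeq 0.9.1, HISAT2 2.0.5 and cutadapt 1.15; the sources used here give neither the annotation release nor the strand setting. The authors deposited raw counts per gene and FPKM, and a table of their own comparison with group mean read counts (a scaled signal), log2 fold changes and p-values. The deposited FPKM equal counts divided by gene length and library total.

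From the counts, edgeR 4.0.16 (R 4.3.3) was run with filterByExpr, TMM factors and the quasi-likelihood test on group alone, with Benjamini-Hochberg adjustment over 15114 genes and a threshold of 0.05. The standard error is the absolute log2 fold change over the square root of F. The fit was also run on simulated counts, and how well it found small changes is not reported here. Alternatives were other scalings and filters, limma-voom (limma 3.58.1), DESeq2 1.42.0, a replicate block, removal of mitochondrial transcripts and each library left out. Library totals were 14443186 to 22048689 counts, and errors hold both counting error and the spread between libraries; the rarest member had 5 counts in its lowest library. Groups follow the library names. Gene coordinates are from GENCODE (mm10). Overlap with genes on the opposite strand was read from exons.

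The members and lists were chosen with earlier results of these data known, and no p-value was computed over a list. Members called, and the 2 of each role with the highest CPM, are given in full. CPM is not scaled by gene length, and the order by FPKM can differ. In con-named libraries Coro1a (4.72 FPKM), for example, lay above Ptprc (0.772 FPKM). Related lists name the 3 smallest p among called genes or the 1 smallest p. The fibroblast, endothelial, lymphatic and platelet lists name their 2 most abundant genes. Promoters come from RefSeq (GRCm38.p6), first-listed start; stretches overlapping exons were left out of those printed. Protein sequences were not analysed here, and the result of the list of other complement genes is not reported here.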

Additional observations from a re-analysis of the deposited data

Results flagged for a closer look

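In 4 of 76 groups of 6 libraries (38 genes in each of the 2 groups), 1 library stood apart from the rest of its group, the gap to the nearest library divided by the group's range being above 0.625. Chance flags about 1 in 20 groups. Cd53 was at 7.19 CPM in HF-3, where the other HF-named libraries lay between 3.12 and 4.31. Adgre1 was at 9.32 CPM in HF-3, and between 6.12 and 7.24 in the others. Lgmn was at 83.8 CPM in HF-6, and between 61.7 and 67.9 in the others. Tyrobp was at 7.47 CPM in con-5, and between 4.34 and 5.31 in the other con-named libraries.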

How the results depend on the processing

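Lyz2, F13a1 and Pf4 were called under all 8 alternatives of scaling, filter, tool, block and mitochondrial removal, and these with Folr2 also when any 1 of the 12 libraries was left out. The 9 members were each called with RLE size factors, limma-voom, DESeq2, a filter of 1 CPM in 6 libraries and without mitochondrial transcripts. Scaling by library totals alone moved the median of all genes from -0.01 to -0.13 and that of the members to -0.35; it called 14 members lower, and 3065 genes in all, 483 higher and 2582 lower. Besides the 9, library totals called Lyve1, Cd163, C1qa, C1qb and Fcer1g lower, and DESeq2 called Lyve1 lower. With no filter beyond 1 count, 5 members were lower. Leaving out 1 library gave 4 to 10 members lower and 500 to 969 genes lower in all (500 without HF-4, where 5 members were lower). The replicate block called 1131 genes, 748 higher and 383 lower, and 4 members lower (Lyz2, F13a1, Pf4 and Fcgr2b); Stab1, Pros1, Axl and Retnla were not called with it. Same-numbered libraries of the groups correlated at -0.161 to 0.09 in their deviations, and 2 of 6 con-named and 1 of 6 HF-named libraries matched best with their own number, so these numbers were not treated as pairs. Values near 0 that passed no test changed sign: with library totals Lgmn was -0.0907 and Ptprc -0.114, with a filter of 1 CPM Ptprc was -0.0018, and for Itga2b the value was 0.0024 with no filter, 0.0107 with the block and 0.0 in DESeq2. When 1 library was left out, Ptprc ran from -0.0891 to 0.111, Mpeg1 from -0.124 to 0.0543, Irf8 from -0.141 to 0.0223, Ccr2 from -0.031 to 0.254, Lgmn from -0.0407 to 0.0549 and Itga2b from -0.0821 to 0.125. The causes were not tested. Of 760 values of single members under the alternatives, 682 kept direction and side of the threshold. In 53 a call was lost, in 9 one was gained, and in 16 the sign changed. All 53 losses concern the 9 members called in the main fit. Most of the 760 values belong to the 29 members not called there. Timd4 and Folr2 had the fewest counts of the members (216 and 316), and the part of depth in their errors was not tested. The alternatives for genes outside the 38 were chosen after seeing the data.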

Other observations

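The 7 resident-type genes were set against Ccr2 within each library, as log2 ratios of CPM. This measure was chosen after seeing the data. The ratio was lower in HF-named libraries for all 7 genes, by values from -0.35 (Cbr2) to -0.80 (Folr2), and the 7 share the same Ccr2 values. For Timd4 it was -2.37 ± 0.465 in con-named and -3.14 ± 0.490 in HF-named libraries (SD, n = 6 each). Two-sided exact permutation tests over libraries gave p = 0.0216 for Timd4 and 0.0563 for Folr2. After Benjamini-Hochberg adjustment over the 7 ratios the smallest p was 0.151 (exact permutation test), so no ratio passed. The other genes of the monocyte-type group were not used in such ratios.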
